A study of Danio rerio with 6 samples.

Results

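Migrating cells of the vertebrate embryo, among them the neural crest, primordial germ cells and blood vessel precursors, read their path from ligands on or near other cells. The genes described here are the zebrafish ligands and receptors of 6 such systems: semaphorins with plexins and neuropilins, ephrins with Eph receptors, Slits with Robo receptors, netrins, the chemokine Cxcl12 with its receptor Cxcr4, and platelet-derived growth factors (Pdgf). They were chosen by the form of the gene symbol in the array annotation. No measured value entered that rule, but earlier results of these data were known when it was set. In all, 47 of 8793 named genes on the array were chosen, and they were covered by 56 probe sets. Of these, 26 encode ligands and 20 receptors, with the receptor-like gene pdgfrl counted as a receptor. The remaining one, unc50, has a symbol that begins like those of the Unc5 netrin receptors but is named after a worm gene for a Golgi membrane protein, and it was counted as neither. The receptors Unc5, Dcc and Pdgfra were not analysed here.

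RNA came from whole AB embryos at 12 h after fertilisation, the 6-somite stage, kept at 28.5 °C. The morphant group comprised 3 samples that received a morpholino (a synthetic antisense molecule) directed at the zinc finger factor Ovo1, in the sox10(7.2):gfp background, in which a sox10 promoter drives a fluorescent reporter in neural crest. The control group comprised 3 samples. The sample labels call the controls wild type, while the design text puts the same reporter in both groups, and whether controls were injected is not stated. Each sample was hybridised to 1 Affymetrix array, and the labels do not state whether a group's samples stem from different clutches; the p-values therefore speak only to sample-to-sample spread, part of which may be technical. The comparison asks which transcripts differ at the stage when crest defects are first seen in morphants. Levels are given as normalised intensity, the deposited intensity after quantile normalization between arrays. A difference is morphant minus control on the scale log2(intensity + 16) with its standard error. In whole embryos fewer cells of a type and less RNA per cell cannot be told apart.

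The arrays numbered 1, 2 and 3 in one group deviated from the group mean together with the same-numbered arrays of the other group. The fit without a block, all standard errors given and the permutation tests did not use the numbers. A second fit treated the numbers as pairs, with the number as a block, and is given where it changes a call. In the fit without the block 886 of 15502 probe sets (5.72%) passed an adjusted p of 0.05, and with the block 2891 (18.6%). The tissue label was checked with 52 markers of 8 embryonic tissues, of which 50 lay above the 25th percentile of probe sets (36.7). The endoderm marker cxcr4a among them is also a guidance gene described here. This check was weak, since 7184 of all 8793 named genes, each by its brightest probe set, also lay above it. Among the 52 markers, counted first in the fit without the block, 5 of 12 neural plate genes were lower in morphants. The mean log2 level of that list lay between 9.04 and 9.23 on morphant arrays, against 9.46 to 9.53 on control arrays. In the paraxial mesoderm list 1 of 8 was lower, aldh1a2 (−0.72 ± 0.15), with list means of 9.18 to 9.25 in morphants and 9.35 to 9.37 in controls. In the axial mesoderm list 1 of 5 was higher, shhb (+0.65 ± 0.11), with list means of 9.18 to 9.27 in morphants and 8.92 to 9.02 in controls. The 1 measured hatching gland gene, klf17, was higher (+0.50 ± 0.10). Of 6 epidermal genes 1 was lower, tp63 (−0.48 ± 0.09), while the other 5 lay above 0. The epidermal list means overlapped, at 11.91 to 12.00 in morphants and 11.95 to 12.04 in controls. None of the lateral mesoderm or endoderm genes passed without the block. With it 1 of 4 endoderm genes was higher, foxa3 (+0.43 ± 0.11, adjusted p = 0.00774). The endoderm list means overlapped, at 7.28 to 7.51 in morphants and 7.11 to 7.41 in controls. In the neural crest list 1 of 10 was lower, crestin (−1.23 ± 0.24), with list means of 8.34 to 8.58 in morphants and 8.53 to 8.69 in controls. With the block 5 of the 10 crest genes were lower and 1 higher. It also called 7 neural plate and 2 paraxial mesoderm genes lower and 2 axial mesoderm genes higher. Of all probe sets the block fit called 9.83% lower and 8.82% higher. All 11 measured genes of a growth arrest and damage list, chosen because they were known to differ in these data, were higher, with a median of 2.81. Their part in the results below was not tested.

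Of the 47 guidance genes 1 passed the test without the block, the ephrin ligand efna3b, which was lower in morphants. That share, 2.13%, stands beside 5.72% of all probe sets, of which 2.59% were higher and 3.12% lower. With the replicate block 8 genes passed, a share of 17.0% that lies near the 18.6% of all probe sets. Of all named genes, each by its brightest probe set as here, 6.80% passed without the block and 21.3% with it. The 3 ligands among the 8 guidance genes, efna3b, cxcl12a and cxcl12b, were lower. The 4 receptors, nrp1a, plxnb2a.1, plxnb2a.3 and epha2a, were higher, as was unc50. No ligand was called higher and no receptor lower in either fit (limma; without the block 0 ligands and 4 receptors were higher, and 3 ligands and 0 receptors lower, at an unadjusted p under 0.05). At that unadjusted threshold 8 of the 47 genes passed, a smaller share than the 21.3% of all probe sets. Of all 15502 probe sets 1548 were higher and 1751 lower there. The background shares with the block were 8.82% higher and 9.83% lower. This split by role did not hold without the arrays numbered 1 or without those numbered 2. Without number 1 the block fit called the ligands sema5a (+0.43) and slit2 (+0.41) higher and the receptor epha6 (−0.37) lower. Without number 2 it called the receptor epha4b (−0.52) lower. Of these genes only slit2 lay above the 25th percentile of probe sets, and the others were dim. Those fits used fewer arrays, which left little to estimate a gene's own spread, and they called 28.7% and 9.58% of all probe sets. In 16 of the 47 genes every morphant lay above the control of its own number, and in 7 below it. Of all 15502 probe sets 3832 and 4057 did so, so that this pattern is common.

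**Figure D1:**
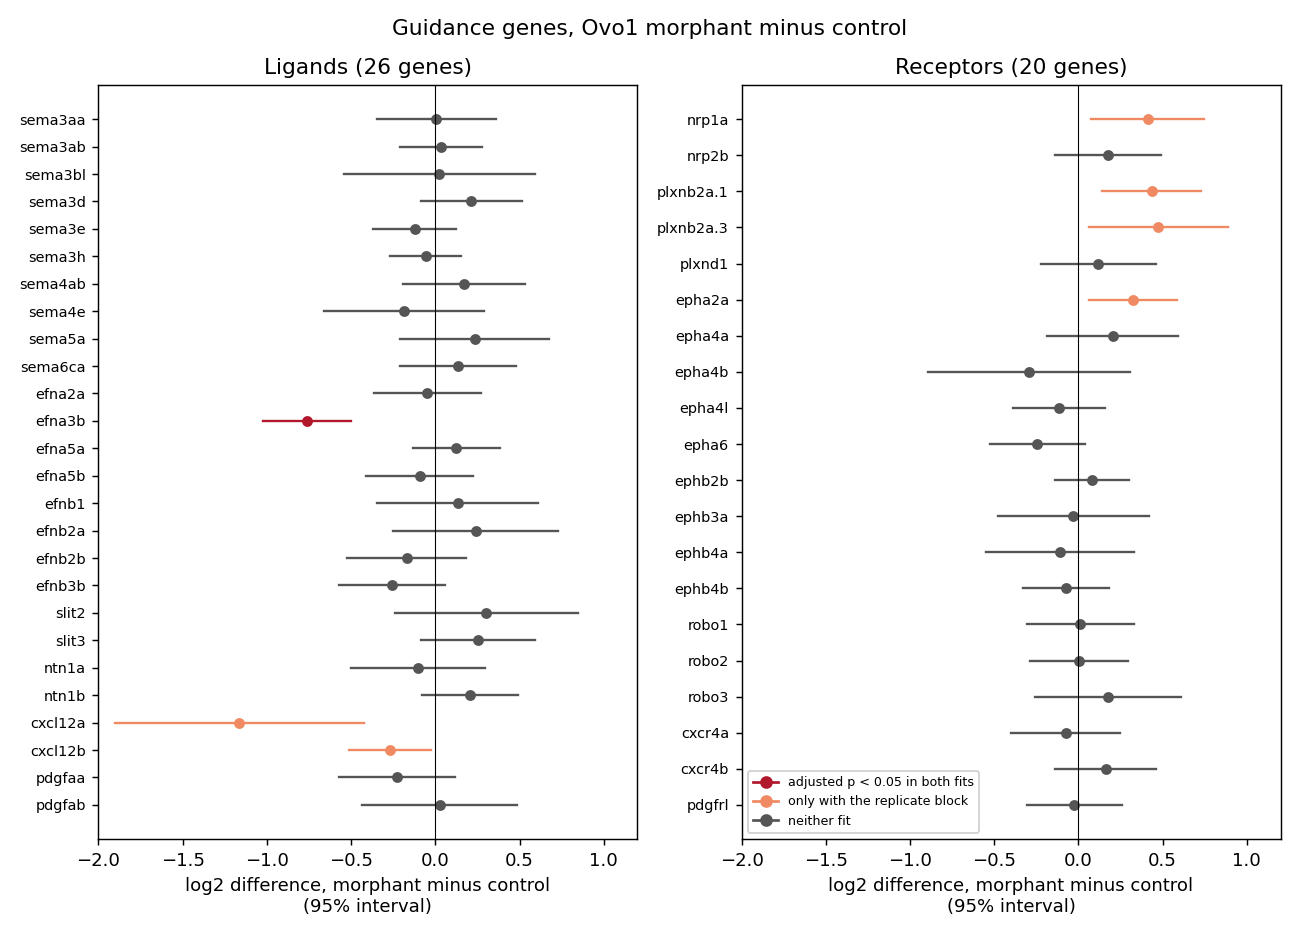
Log2 difference, morphant minus control, of each ligand (left) and receptor (right), with the 95% interval of the fit without the block as a horizontal line; unc50 is not drawn. Colours mark adjusted p under 0.05 in both fits, only with the replicate block, or in neither. Intervals lie clear of 0 on the low side in efna3b, cxcl12a and cxcl12b and on the high side in nrp1a, both plxnb2a genes and epha2a.

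Cxcl12 is a chemokine that guides germ cells and the lateral line primordium of zebrafish through Cxcr4, and its genes are present as the duplicates cxcl12a and cxcl12b. The level of cxcl12a was 327, 135 and 109 in morphants 1 to 3, against 462, 376 and 372 in controls 1 to 3. All morphants lay below all controls, and morphant 1 stood closer to the controls than to the other two morphants. The difference, −1.16 ± 0.33 or 2.24-fold lower in morphants, was the largest of the 47 genes. It did not pass without the block (adjusted p = 0.0782) and passed with it (0.00410). Without morphant 1 it was −1.61 and passed without the block too (adjusted p = 0.000391). Without any other single array it did not pass (adjusted p from 0.181 to 0.241), and the difference was smallest without morphant 3, at −0.88. A second, dimmer probe set of cxcl12a read 190, 97.9 and 80.7 in morphants and 281, 258 and 243 in controls. It showed a difference of −1.07 ± 0.25 that passed in both fits (adjusted p = 0.0444 and 0.00298), with the same spacing of the arrays.

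The duplicate cxcl12b read 1235, 1079 and 986 in morphants, against 1425, 1339 and 1219 in controls. The groups overlapped, with morphant 1 above control 3, while each morphant lay below the control of its own number. The difference of −0.27 ± 0.11 passed only with the block (adjusted p = 0.189 without and 0.0247 with it). The within-array log2 ratio of cxcl12a to cxcl12b was lower by 0.89 in morphants, with no overlap between the groups. An exact two-sided permutation test gave p = 0.1, the smallest that 3 against 3 arrays allow (0.5 after adjustment over 10 duplicate pairs).

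The receptors of this chemokine did not pass in either fit. The level of cxcr4a was 643, 495 and 481 in morphants, against 596, 615 and 491 in controls (−0.08 ± 0.14). The level of cxcr4b was 179, 233 and 216 in morphants, against 185, 174 and 195 in controls (+0.16 ± 0.13). The groups overlapped in both, and the 95% intervals of the differences ran from −0.40 to 0.25 and from −0.14 to 0.46. Of the scavenger receptor ackr3b, which removes Cxcl12, the level averaged 494 in morphants and 437 in controls (+0.15 ± 0.16, adjusted p = 0.669).

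Ephrins are membrane-bound ligands of the Eph receptor tyrosine kinases, class A held by a lipid anchor and class B by a transmembrane domain, and contact between them typically repels cells and keeps boundaries such as those of somites and hindbrain segments. In class A, efna3b read 34.7, 33.5 and 37.5 in morphants, against 63.1, 73.2 and 76.4 in controls. The groups were far apart relative to their spread, and group membership took 96.2% of the gene's variance over the 6 arrays. The difference was −0.76 ± 0.12, or 1.69-fold lower (adjusted p = 0.00767, and 0.00165 with the block). Morphant levels lay near the 25th percentile of probe sets, where the pseudocount shrinks a difference, and the difference was −0.99 with a pseudocount of 1 and −0.44 with 64. The call held without each array in turn except without morphant 2, where the adjusted p was 0.0522 and the difference −0.73.

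The other class A ephrins, efna2a, efna5a and efna5b, had differences between −0.09 and +0.12 and overlapping groups. The 3 probe sets of efna5a ran from +0.09 to +0.22. In class B none of 4 ligands passed. The level of efnb2a, which marks arteries and somites, was 661, 381 and 503 in morphants and 527, 336 and 427 in controls. Each morphant lay above the control of its number, while the arrays numbered 1 were the highest of both groups (+0.24 ± 0.21, adjusted p = 0.603, and 0.0814 with the block). Its duplicate efnb2b had a difference of the opposite sign, at 938, 675 and 682 in morphants and 1010, 804 and 763 in controls (−0.17 ± 0.16, adjusted p = 0.611). The within-array ratio of efnb2a to efnb2b did not overlap between the groups and was higher by 0.41 in morphants (exact two-sided permutation p = 0.1, the smallest possible, and 0.5 adjusted over 10 pairs). All morphants lay below all controls in efnb3b, at 136, 160 and 165 against 217, 170 and 175, and this difference of −0.26 ± 0.14 passed in neither fit. For efnb1 the level was 189, 101 and 112 in morphants and 134, 111 and 107 in controls. Its difference of +0.13 turned to −0.12 without morphant 1.

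Among 9 Eph receptors only epha2a passed, and only with the block. Its level was 963, 847 and 848 in morphants and 809, 657 and 654 in controls, with no overlap (+0.32 ± 0.11, adjusted p = 0.147, and 0.0189 with the block). The level of epha4a, which marks hindbrain segments, was 1007, 770 and 950 in morphants, against 986, 621 and 781 in controls (+0.20 ± 0.17), and a second probe set stood at +0.31 ± 0.22. Neither probe set passed in either fit. The level of ephb4a, the venous receptor of efnb2a, was 403, 237 and 311 in morphants and 392, 284 and 340 in controls (−0.11 ± 0.19), with arrays 1 highest in both groups. For the remaining receptors, epha4b, epha4l, epha6, ephb2b, ephb3a and ephb4b, the difference ran from −0.29 to +0.08 and the groups overlapped. Of the 17 ephrin and Eph genes 6 lay above 0 and 11 below, with a median of −0.07.

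**Figure D2:**
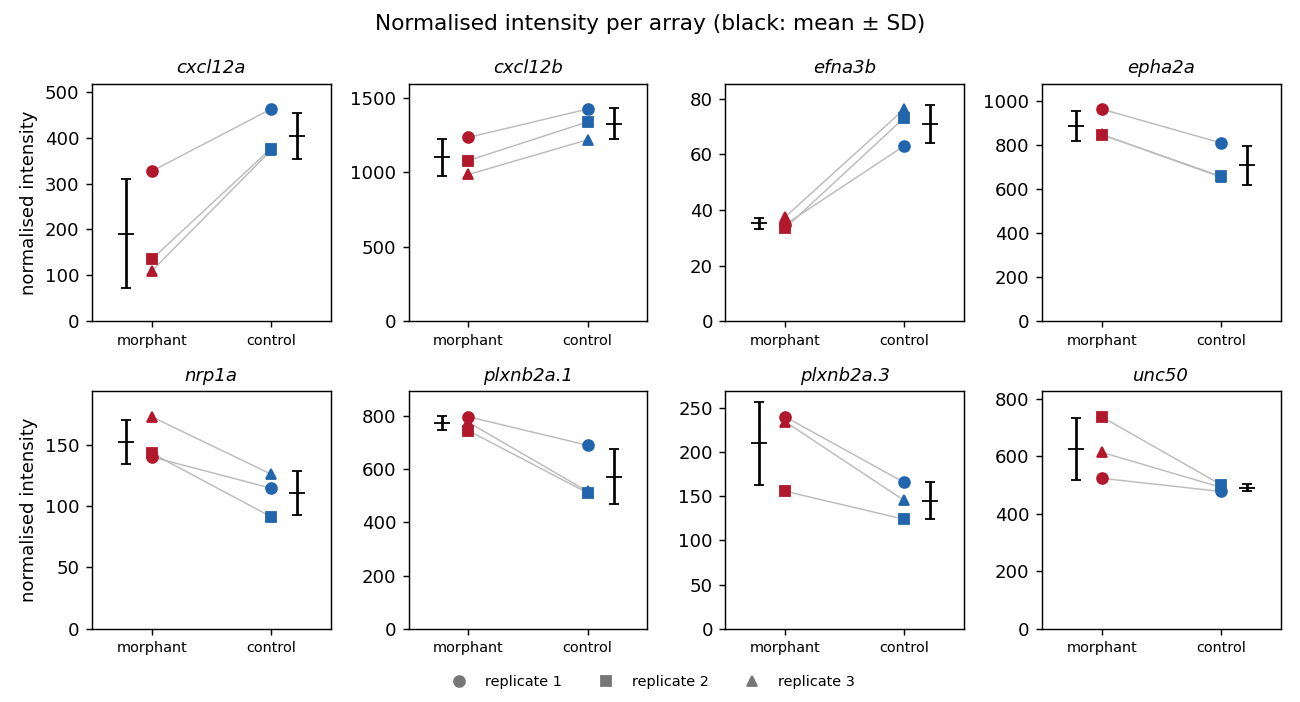
Normalised intensity on each array, on linear axes from 0, of the 8 genes that passed with the replicate block, morphants left and controls right; grey lines join arrays of the same number, and black marks show mean ± SD (n = 3). Morphant 1 of cxcl12a stands apart from the other morphants, and efna3b shows the tightest morphant values relative to the gap.

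Semaphorins repel or attract cells through plexins, with neuropilins as co-receptors for the secreted class 3. None of the 10 semaphorin ligands passed in either fit, and none had groups that did not overlap. The secreted semaphorin sema3d, which acts on migrating neural crest in zebrafish, read 69.2, 72.2 and 86.4 in morphants, against 57.2, 60.8 and 71.7 in controls. Each morphant lay above the control of its own number by 0.20 to 0.22, and the difference of +0.21 ± 0.13 did not pass (adjusted p = 0.415, and 0.167 with the block). The level of sema3aa was 138, 93.4 and 118 in morphants and 128, 106 and 111 in controls (+0.01 ± 0.15). Over the 6 class 3 genes the differences ran from −0.12 to +0.21. Of these, sema3ab, sema3e and sema3h lay below the 25th percentile, near the floor of the arrays. The membrane-bound sema4ab, sema4e, sema5a and sema6ca stood between −0.19 and +0.23.

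All 5 plexins and neuropilins lay above 0, with a median of +0.41. The share with an unadjusted p under 0.05 was 3 of 5, and 3 of 15 with the semaphorins included, against 21.3% of all probe sets. Those 3 passed with the block, which uses the same differences and is no separate support. The neuropilin nrp1a read 140, 143 and 173 in morphants, against 115, 91.4 and 126 in controls. Its groups did not overlap, and the difference was +0.41 ± 0.15 (adjusted p = 0.154, and 0.0271 with the block). Of the other neuropilin, nrp2b, the level was 603, 472 and 545 in morphants and 541, 406 and 485 in controls. It was higher within each numbered pair, by 0.15 to 0.21, and did not pass (+0.17 ± 0.14, adjusted p = 0.543, and 0.173 with the block).

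The B-type plexins are receptors of membrane-bound semaphorins. The level of plxnb2a.1 was 797, 745 and 776 in morphants, against 690, 511 and 517 in controls. The morphants lay close together and above all controls, of which control 1 was the nearest. The difference of +0.44 ± 0.13 passed with the block (adjusted p = 0.0911 without and 0.0139 with it), and without control 1 it was +0.57 and passed without the block (0.0287). For plxnb2a.3 the level was 240, 156 and 234 in morphants and 166, 124 and 145 in controls. Here morphant 2 lay below control 1, and the difference of +0.48 ± 0.18 again passed only with the block (adjusted p = 0.175 and 0.0154). The reference annotation places these genes in a row with plxnb2a.2, and whether their probe sets cross-hybridise was not tested. The vascular semaphorin receptor plxnd1 read 239, 272 and 319 in morphants and 283, 214 and 263 in controls (+0.12 ± 0.15), and passed in neither fit.

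Slits are secreted repellents read by Robo receptors. The 2 Slit genes were the highest ligands by difference. The level of slit2 was 325, 211 and 254 in morphants and 304, 154 and 189 in controls (+0.30 ± 0.24, adjusted p = 0.543, and 0.0754 with the block). The level of slit3 was 121, 98.2 and 126 in morphants and 110, 79.8 and 93.5 in controls (+0.25 ± 0.15, adjusted p = 0.397, and 0.127 with the block). In both, every morphant exceeded the control of its own number, and the groups overlapped. The receptors robo1 and robo2 stood at +0.01 ± 0.14 and +0.00 ± 0.13, with 95% intervals from −0.31 to 0.33 and from −0.29 to 0.29. The level of robo1 was 317, 310 and 318 in morphants, against 372, 259 and 316 in controls, and that of robo2 was 65.9, 67.9 and 53.7 in morphants, against 61.1, 69.0 and 56.9 in controls. For robo3 it was 880, 570 and 571 in morphants and 714, 540 and 510 in controls (+0.18 ± 0.19), and without morphant 1 the sign turned (−0.03).

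Netrin 1 is a floor plate guidance cue. The level of ntn1a was 109, 163 and 152 in morphants and 151, 127 and 179 in controls (−0.10 ± 0.18), and its 3 probe sets differed in sign, from −0.10 to +0.16. The duplicate ntn1b read 92.0, 92.0 and 84.3 in morphants, against 66.5, 85.2 and 74.8 in controls (+0.21 ± 0.13). Neither gene passed in either fit. Pdgf ligands attract mesoderm and crest cells that carry Pdgf receptors. The level of pdgfaa was 451, 610 and 640 in morphants and 580, 664 and 740 in controls, lower within each numbered pair (−0.23 ± 0.15, adjusted p = 0.462, and 0.0964 with the block). For pdgfab, below the 25th percentile, it was 25.6, 22.1 and 50.4 in morphants and 31.2, 25.6 and 34.8 in controls (+0.03 ± 0.20), and without morphant 3 the difference was −0.22. The receptor-like gene pdgfrl, also dim, stood at −0.02 ± 0.12. Outside both roles, unc50 read 524, 738 and 614 in morphants and 478, 502 and 492 in controls (+0.33 ± 0.13, adjusted p = 0.195, and 0.0472 with the block).

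As sets, ligands and receptors had nearly the same centre. The median difference was +0.02 over the 26 ligands and +0.05 over the 20 receptors, beside 0.00 over all probe sets. Above 0 lay 14 ligands and 12 receptors. The ligands had the longer low tail, set by cxcl12a and efna3b, the only genes of the 47 that differed by more than 0.5 (7.22% of all probe sets did). The groups did not overlap in 7 of the 47 genes, against 26.0% of all probe sets and 2543 of 8793 named genes. In efna3b, cxcl12a and efnb3b morphants were below all controls, and in epha2a, nrp1a, plxnb2a.1 and unc50 above them.

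**Figure D3:**
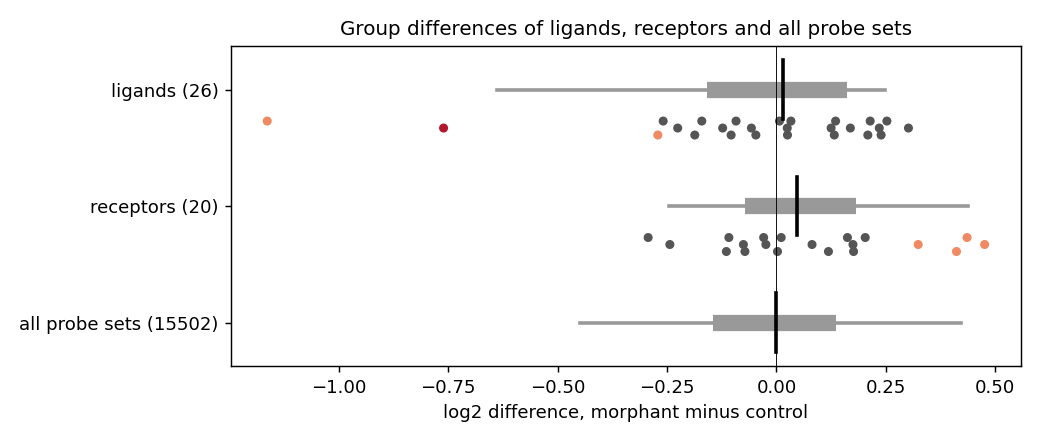
Log2 difference, morphant minus control, of 26 ligands and 20 receptors as points, coloured by call as in the plot of intervals, and as bars for ligands, receptors and all 15502 probe sets. Thick bars span the quartiles, thin lines the 5th to 95th percentile, and black ticks mark the medians of +0.02, +0.05 and 0.00.

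The guidance genes also varied with the replicate number. In 20 of 47 genes (42.6%) array 1 was the highest in morphants and also in controls, against 19.9% of all probe sets. In 3 genes (6.38%) it was the lowest in both groups, against 24.3% of all probe sets. The number took a median of 54.4% of a guidance gene's variance over the 6 arrays, against 43.9% over all probe sets, and the group took 17.1%, against 24.5%. The number has 2 degrees of freedom and the group 1, so that the share of the number cannot be set against that of the group. Relative to the mean of controls, the median ligand stood at +0.10, −0.12 and +0.01 in morphants 1 to 3 and at +0.13, −0.10 and −0.00 in controls 1 to 3. For receptors the medians were +0.13, −0.01 and −0.00 in morphants and +0.12, −0.10 and −0.04 in controls. The labels do not say what a number stands for.

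**Figure D4:**
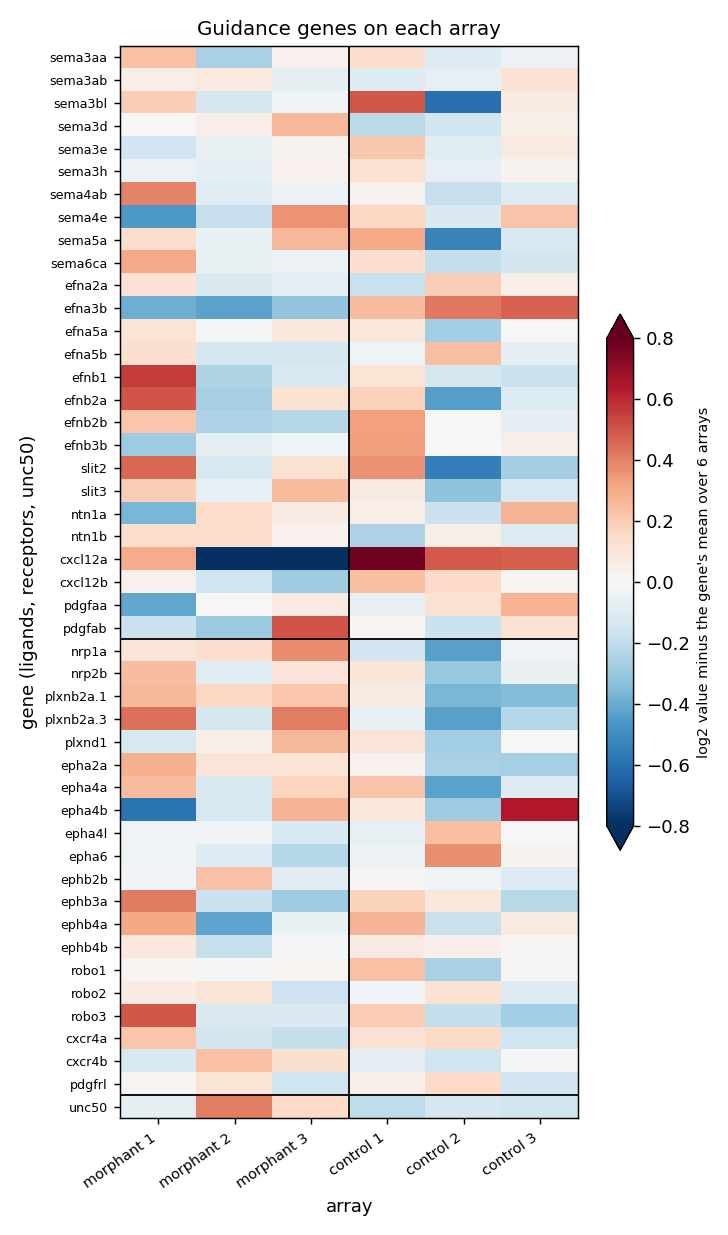
Log2 value of each of the 47 genes minus the gene's mean over the 6 arrays, morphants left and controls right, with ligands above, then receptors and unc50; the colour scale is capped at 0.8 on both sides. The row of efna3b is blue on all morphant arrays and red on all control arrays, while cxcl12a is blue on morphants 2 and 3 and red on morphant 1 and the controls.

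Partners and transducers of these receptors were followed through a list of 108 symbols, of which 55 were measured. In this list 3 were higher and 0 lower (5.45%, beside 5.72% of all probe sets), with a median of +0.04. The adaptor nck1b, which couples tyrosine kinase receptors to actin regulators, read 2089, 2082 and 2002 in morphants, against 949, 991 and 990 in controls. The difference of +1.06 ± 0.07 was larger than that of any of the guidance receptors (adjusted p = 0.000101). Its duplicate nck1a stood at +0.02 ± 0.14. The cell surface proteoglycan sdc4 (+0.46 ± 0.07) was also called. With the block 8 were higher and 3 lower (20.0%, beside 18.6% of all probe sets). Among the higher were the glypican gpc4 (+0.64 ± 0.19) and the small GTPase rnd3a (+0.60 ± 0.16), which did not pass without the block (adjusted p = 0.0935 and 0.0619). Among the lower were the kinase pak2b (−0.21 ± 0.09) and cdc42l (−0.29 ± 0.10), which also passed only with the block (adjusted p = 0.0282 and 0.0326). The netrin receptor neo1a did not pass in either fit (+0.23 ± 0.17, adjusted p = 0.509).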

How the data were processed

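Total RNA (5 µg per sample) was labelled and hybridised per the labels' protocols. Per the submitters' processing notes, the authors summarised each probe set to 1 deposited intensity on a linear scale, using the PLIER algorithm of Affymetrix Expression Console 1.1. Its settings are not given in the sources used. Array medians lay between 133 and 154, and precision is limited by the 6 arrays. Of 15617 probe sets 115 controls were left out. Log2(intensity + 16) was quantile normalized because log2 medians ranged over 0.19 (limit 0.1), and normalised intensities are these values with the pseudocount removed. The morphant minus control contrast was fitted in limma 3.58.1 under R 4.3.3 (lmFit, eBayes with trend) over 15502 probe sets with Benjamini-Hochberg adjustment at 0.05, and again with the replicate number as a block. The pairing rests on the data: same-numbered arrays correlated at r = 0.58, 0.46 and 0.54 across probe sets (limit 0.1), which are not independent replicates. Between arrays of different number r ran from −0.50 to 0.105, and the highest of these, morphant 2 with control 3, also passed the limit. Deviations from the mean cancel within a group, so positive values for the same number force lower ones between different numbers. The low values are therefore no separate support for the pairing. The brightest probe set stood for each gene, and all 47 platform symbols equal the current RefSeq symbols. The fit without the block was tested on simulated data. It recovered 4% of simulated log2 changes of 0.25, 58% of those of 0.5 and 100% of those of 1. A gene that did not pass may therefore still differ by a small amount, or by a larger one where its arrays spread widely. In the real data cxcl12a did not pass at −1.16 ± 0.33. The simulated arrays were independent, without an effect of the replicate number. Each simulated probe set had the average spread of probe sets of like level, so wider spreads were not covered. The simulation called 137 probe sets in all, against 886 in the data. An adjusted p of 0.05 thus required a smaller unadjusted p there, and the recovered shares do not carry over directly. Named genes were those called in either fit, the 5 largest increases and decreases above the 25th percentile, and a fixed set of guidance genes. Not every called partner gene is reported here. Partners named beyond these were chosen after their values were seen. The variance shares of the replicate number and the tests of duplicate gene pairs were also chosen after the data were seen. Members and lists were chosen with earlier results of these data known. Alternatives covered normalization, pseudocount, filter, eBayes settings, probe set choice, the block and each array left out. Sequences of these genes were not used here. Figures were drawn with matplotlib 3.10.9.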

Additional observations from a re-analysis of the deposited data

How the results depend on the processing

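In the 10 alternatives that kept all arrays, the call of efna3b held throughout, and the count of 0 higher and 1 lower changed only with the replicate block, to 5 higher and 3 lower (3 ligands and 4 receptors). The alternative by current symbols repeated the fit itself, since all 47 symbols are current. As efna3b has only 1 probe set, the mean over the probe sets of a gene left its levels unchanged too. Without 1 array in turn, between 0 and 1 genes were higher and between 0 and 2 lower, with 0 to 2 ligands and 0 to 1 receptors called; the 0 lower came without Ovo1 morphant replicate 2. The genes called in those fits were efna3b, cxcl12a and unc50 (both without morphant 1) and plxnb2a.1 (without control 1). Over all 16 alternatives the adjusted p ran from 0.00165 to 0.0522 for efna3b, from 0.000391 to 0.241 for cxcl12a, and from 0.0139 to 0.300 for plxnb2a.1. As an alternative chosen after seeing the data, the block fit was repeated without the replicates of 1 number. It gave 9 higher and 4 lower without number 1, 1 and 3 without number 2, and 0 and 2 without number 3, that is 2 to 5 ligands and 0 to 7 receptors. In these 3 fits efna3b and cxcl12a were called each time, plxnb2a.3 in 2, and cxcl12b, epha2a, nrp1a, plxnb2a.1 and unc50 in 1, without number 1. Beyond the 8 genes of the block fit they called slit2, sema5a, epha4a and plxnd1 higher and epha6 lower without number 1, and epha4b lower without number 2. The shares of members called were 27.7%, 8.51% and 4.26%, beside 28.7%, 9.58% and 10.3% of all probe sets. Medians of ligands and receptors moved by less than the spread between morphant arrays in every setting, unc50 counted as a receptor included. Of the 47 genes 30 kept their sign in each of the 16 alternatives (6 without 1 array) in which they were measured. The other 17 differed by at most 0.18. The 8 genes below the 25th percentile were absent from the fit that left out dim probe sets. The eBayes settings, the block and the current symbols leave each difference as it is, so they could not change a sign. The cause of the changes between settings was not tested. Dim signal limits efna3b and the 8 genes below the 25th percentile, since a pseudocount shrinks differences there by construction.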
